A study of Mus musculus with 4 samples.

Results

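The 9 genes Cux1, Cux2, Pou3f1, Pou3f2, Pou3f3, Rorb, Bhlhe22, Lhx2 and Lmo4 encode transcription factors and a cofactor known from neurons of the upper layers of the cerebral cortex. They were taken by name as a list, 9 out of 21938 protein-coding genes of the GENCODE annotation on the mm10 build, and their promoters were described by the position and extent of trimethylation of histone H3 at lysine 4 (H3K4me3), as mapped by chromatin immunoprecipitation and sequencing. The tissue was left cerebral cortex, taken with no named treatment from B6CASTF1/J females at an age of 2 months, a hybrid between the inbred strains C57BL/6J and CAST/EiJ. There were 4 libraries, 2 technical replicates from pool I (biological replicate 2) and 2 from pool J (biological replicate 1), and each pool combined 4 biosamples. The labels give the same donor record to all libraries and do not tell separate animals apart among the biosamples, so the pools may differ for technical reasons alone. The technical replicates of a pool were merged before peak calling, so the pools are compared by 1 list each, which allows no p-value. The tissue was not sorted, so a wider or stronger signal from more cells and from more mark per cell cannot be told apart, and the peak lists do not separate the parental alleles.

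H3K4me3 is deposited at promoters that are active or poised for transcription, and in many tissues genes that define the identity of a cell type carry it over long stretches that run from the promoter into the gene body. In the cortex, excitatory neurons of layers II to IV connect cortical areas with each other, and layer IV receives the input from the thalamus. CUX1 and CUX2 shape their dendrites and synapses, the POU factors act in their production and migration, RORB marks layer IV, and BHLHE22, LHX2 and LMO4 pattern cortical areas and regulate the genes of postmitotic neurons.

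The peak list termed replicated, called on both pools, held 25446 peaks, the pool I list 24508 and the pool J list 21573. The number of reads behind each list is unknown. Promoters of the excitatory cortical neuron markers Slc17a7, Neurod6, Tbr1 and Camk2a carried a peak in every list, and those of 0 of 5 genes of other regions or tissues (Nkx2-1, Irx1, Irx2, Hoxa9 and Hoxd9) did. Of 5 microglial markers, Cx3cr1 and Tmem119 had a weak promoter peak in the replicated list, of 211 and 198 bases, and none in either pool list. P2ry12 had one of 548 bases in pool I alone, and C1qa and C1qc had none in any list.

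All 9 upper-layer genes had a promoter peak, defined as a peak within 1000 bases of an annotated transcript start, and this held in the replicated, the pool I and the pool J list alike. Among all protein-coding genes, 65.2% had such a peak in the replicated list, 64.8% in pool I and 63.9% in pool J. The domains were wide. With peaks up to 1000 bases apart joined into domains, the widest promoter domain had a median of 6904 bases over the 9 genes in the replicated list, against 2124 bases over all marked genes, whose quartiles were 1537 and 2966 bases. The median was 7708 bases in pool I and 5503 bases in pool J, where all marked genes had 2193.5 and 2026 bases. The narrowest of the 9, Cux2 with 4298 bases, lay at percentile 90.5 of the marked genes. Of the 9 genes, 7 were among the widest 5% of promoter domains, those above 5166 bases, a class that by definition holds 5% of marked genes. The count was 7 in pool I and 6 in pool J, where Rorb fell below the class, and it dropped to 5 under some alternatives of joining and threshold. The exceptions in the replicated list were Pou3f1, with 4840 bases at percentile 93.8, and Cux2. The nearest above the limit of the class was Cux1 with 5549 bases.

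Peak height was less extreme than width. The enrichment of the highest peak in the widest promoter domain, the authors' fold value for the peak, lay between percentiles 31.0 and 80.9 of marked genes in the replicated list. Its median over the 9 genes was at percentile 41.4 there, at 44.6 in pool I and at 41.0 in pool J. Cux1 was the highest in the replicated list at 26.9, and Lhx2 at 16.4 and Lmo4 at 16.9 were the lowest. Lmo4 kept no fixed place, with 24.4, percentile 69.9, in pool I and 17.5, percentile 35.4, in pool J. In the order of width Pou3f3 came first in both pools, Pou3f2 and Lmo4 followed and changed places between the pools, and Lhx2 was the fourth in both. Among the other 5 the order changed between the pools, with Rorb the widest of them in pool I and the narrowest of all in pool J.

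**Figure D1:**
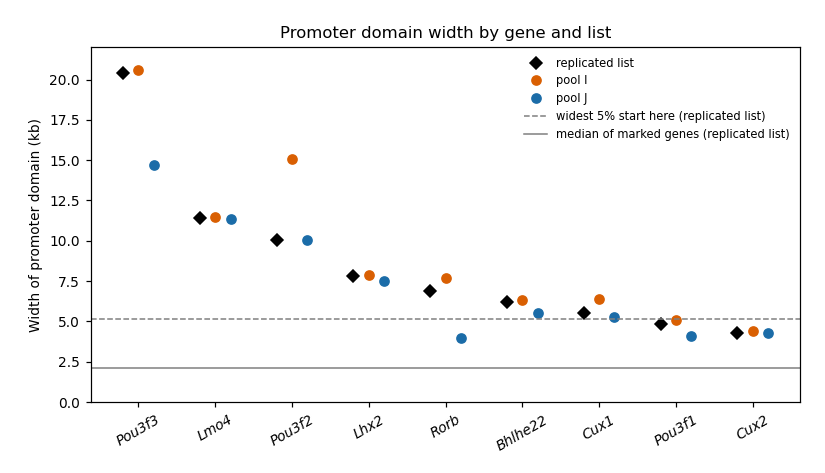
Width of the promoter domain (kb) of each upper-layer gene in the replicated list (diamonds), in pool I and in pool J (circles), ordered by the replicated list. Every gene lies above the solid line at 2124 bases, the median of all marked genes, 7 diamonds lie above the dashed line where the widest 5% begin, and the pool I circle is above that of pool J for each of the 9 genes.

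Promoter windows show the base composition directly upstream of annotated starts. RefSeq (GRCm38.p6) held upstream windows for 7 of the 9 genes, with no entry matched for Pou3f1 and Bhlhe22. The 250 bases before a RefSeq start of each of Pou3f3, Rorb and Lmo4 are printed 5′ to 3′ as examples. They belong to the widest domain and to the domains with the largest and the smallest ratio of width between the pools. Capitals mark the CpG dinucleotides.
Pou3f3, chr1:42695518-42695767, plus strand: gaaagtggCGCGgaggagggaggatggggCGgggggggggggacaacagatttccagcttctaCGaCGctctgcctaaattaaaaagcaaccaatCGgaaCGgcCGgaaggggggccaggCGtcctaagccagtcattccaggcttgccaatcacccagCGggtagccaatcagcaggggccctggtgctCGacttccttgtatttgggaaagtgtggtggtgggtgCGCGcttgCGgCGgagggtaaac
Rorb, chr19:19111197-19111446, minus strand: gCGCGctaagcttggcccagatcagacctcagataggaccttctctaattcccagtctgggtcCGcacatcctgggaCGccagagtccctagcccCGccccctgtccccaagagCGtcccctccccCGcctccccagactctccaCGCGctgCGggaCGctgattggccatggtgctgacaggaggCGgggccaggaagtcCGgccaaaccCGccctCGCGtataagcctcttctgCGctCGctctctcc
Lmo4, chr3:144205256-144205505, minus strand: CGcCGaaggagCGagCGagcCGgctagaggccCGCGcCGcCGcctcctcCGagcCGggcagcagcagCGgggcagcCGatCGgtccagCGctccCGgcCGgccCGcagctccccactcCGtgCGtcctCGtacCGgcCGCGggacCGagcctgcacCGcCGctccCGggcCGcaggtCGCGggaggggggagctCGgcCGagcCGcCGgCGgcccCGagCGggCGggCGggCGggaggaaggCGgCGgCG
The printed window of Pou3f3 held 15 CpGs, that of Rorb 18 and that of Lmo4 44. The median was 6 over 32851 RefSeq windows of the same length. For Lmo4 this was percentile 99.5. The letters GGGCGG, the core of a GC box, were found on either strand in each of these 3 windows and in 32.7% of all windows. CCAAT was found on either strand in the windows of Pou3f3 and Rorb and not in that of Lmo4, against 33.9% of all windows. The octamer ATGCAAAT, the motif POU proteins are known for, was found in none of the windows of the 7 matched genes and in 1.6% of all windows, and TATAAA in 12.4% of all windows and, among the matched genes, in a Cux2 window at chr5:122047826-122048075. Each motif was searched on both strands, regardless of overlap with another. Peaks of the replicated, pool I and pool J lists covered every base of the printed Rorb and Lmo4 windows. In the Pou3f3 window they covered 121 bases in the replicated list, 206 in pool I and 119 in pool J, because a gap between neighbouring peaks lay directly upstream of the start. A further RefSeq window of Rorb, chr19:19001118-19001367, held 4 CpGs and no GGGCGG, and no peak of any list covered it. Further windows of Lmo4 held 25 and 29 CpGs and were covered throughout in every list.

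Among the POU genes, Pou3f3 (also BRN1; chr1:42695768-42703176, plus strand) carried the widest domain of the 9. Together with Pou3f2 its product acts in the generation and migration of upper-layer neurons. The domain ran over 20385 bases in the replicated list, 20609 in pool I and 14670 in pool J, a mean of 17639.5 ± 4199.5 bases (SD, n = 2 pools), and its percentile among marked genes rounded to the top of the scale in every list. It reached 11624 bases upstream and 8760 bases downstream of the start, in 8 peaks, and so extended past the gene on both sides. Its upstream side contained 6 annotated starts of Pantr1, a long noncoding RNA gene transcribed away from Pou3f3, of which the farthest lay 2675 bases upstream, and the start of AC122898.1, which overlaps Pou3f3 on the same strand. Pantr2, a noncoding gene 17686 bases downstream, started under a separate peak of 3144 bases with an enrichment of 13.2 in the replicated list. In pool I that peak had 3146 bases. In pool J it was broken into peaks of 1421 and 1585 bases.

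Pou3f2 (BRN2; chr4:22482780-22488366, minus strand) had a domain of 10059 bases in the replicated list, 15083 in pool I and 10055 in pool J, a mean of 12569 ± 3555.3 bases (SD, n = 2 pools). It reached 3848 bases upstream, over the start of the noncoding gene Gm30731 at 2182 bases, and 6210 bases downstream in the replicated list, against 11255 in pool I and 6201 in pool J. Beyond the domain the marked sequence went on. The replicated list held peaks up to 11239 bases downstream, of which the outermost, 2791 bases wide, had an enrichment of 12.8, and 2 peaks upstream, out to 10666 bases, with enrichments of 6.59 and 6.53. The same stretches carried peaks in both pools, with other edges and other gaps.

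Pou3f1 (OCT6; chr4:124656807-124660655, plus strand), a POU gene of the same class, is also known from Schwann cells and from neurons of layer V. Its domain was far narrower than those of Pou3f2 and Pou3f3, with 4840 bases in the replicated list, 5097 in pool I and 4109 in pool J, a mean of 4603 ± 698.6 bases (SD, n = 2 pools). Nearly all of it lay downstream, 4297 bases against 542 upstream, and the start of the antisense gene Gm2164 fell inside it at 362 bases. The last peak, 562 bases wide with an enrichment of 2.72, was present in the replicated list and, with 631 bases, in pool I, and had no counterpart in pool J. A further peak 15319 to 16060 bases downstream was found in the replicated list and overlapped peaks of both pools.

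The POU genes and Bhlhe22 consist of 1 exon, so the mark could cover the protein-coding sequence itself. For each gene the transcript with the longest coding sequence was taken, for coverage and for the number of exons. Other transcripts were not examined. Replicated peaks covered every base of the coding sequence of Pou3f2, Pou3f3 and Bhlhe22 and 99.1% of that of Pou3f1. At least 90% was covered in these 4 of the 9 genes, against 4.51% of all marked genes and 63.4% of marked genes with 1 exon, whose median was complete coverage. Coverage was 59.7% at Lhx2 and 47.7% at Lmo4, each with 5 exons, 0.66% at Cux1 with 24 exons, and 0.0% at Cux2 with 21 and Rorb with 10 exons. The median of all marked genes was 6.11%. Thus the genes of 1 exon were covered as most marked genes of that structure are. In the long genes Cux1, Cux2 and Rorb the domain lay almost wholly outside the coding sequence of the transcript taken.

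The cut-homeobox genes Cux1 and Cux2 lie on chromosome 5 and span 319356 and 193737 bases. Cux1 (chr5:136248135-136567490, minus strand) had the most enriched peak of the 9 genes in every list, with 28.7 in pool I and 23.3 in pool J. Its domain had 5549 bases in the replicated list, 6380 in pool I and 5253 in pool J, a mean of 5816.5 ± 796.9 bases (SD, n = 2 pools). A main peak of 4614 bases was followed downstream by a weak one of 751 bases with an enrichment of 3.03, and pool I had a further weak peak of 463 bases that pool J lacked. Of 14 annotated starts, 10 lay within reach of these peaks in all lists. The other 4, between 194142 and 264969 bases downstream of the 5′-most start, had no peak in any list.

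Cux2 (chr5:121856366-122050102, minus strand), a marker of layers II to IV, had marked starts at several places in the gene. The domain at the 5′ end had 4298 bases in the replicated list, 4391 in pool I and 4275 in pool J, a mean of 4333 ± 82.0 bases (SD, n = 2 pools), and included the start of the antisense gene Gm15637. An internal start 47758 bases downstream carried its own peaks, 781 bases wide with an enrichment of 9.37 and 1705 bases wide with 8.27 in the replicated list. Pool I showed 790 and 2712 bases there and pool J 756 and 1674 bases. A weak peak near the start 125181 bases downstream was listed in the replicated list at an enrichment of 3.64 and in pool J at 3.51, with none in pool I. In all, 6 of 11 starts had a peak in the replicated list, 5 in pool I and 6 in pool J, and the farthest 5 starts, 133368 bases or more downstream, had none.

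Rorb (chr19:18930605-19111196, minus strand) encodes the nuclear receptor known as a marker of layer IV and for its part in forming the whisker barrels. Its domain had 6904 bases in the replicated list, 7708 in pool I and 3955 in pool J, a mean of 5831.5 ± 2653.8 bases (SD, n = 2 pools), the widest spread between the pools for its size among the 9. The peak at the start was alike in both pools, with 4137 bases in pool I and 3955 in pool J. The difference lay in the first intron. Pool I had a peak of 1660 bases with an enrichment of 5.70 from 3666 bases downstream of the start and another of 1420 bases with 3.42 that ended 6867 bases downstream. Pool J had a single peak there, of 317 bases with an enrichment of 3.92, which began 4938 bases downstream and 1565 bases from the main peak, too far to be joined. The other 3 annotated starts of Rorb, near 110096 bases downstream, had no peak in any list.

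Bhlhe22 (chr3:18054174-18057517, plus strand) encodes a basic helix-loop-helix repressor of postmitotic neurons. Its domain was 1 unbroken peak of 6199 bases in the replicated list. Pool I divided nearly the same stretch, 6332 bases, into 3 peaks, and pool J divided 5503 bases into 2, a mean of 5917.5 ± 586.2 bases (SD, n = 2 pools). The main peak had an enrichment of 19.2 in the replicated list. A separate weak peak 3606 to 4374 bases upstream, with an enrichment of 3.63 in the replicated list, was met by a peak in both pools.

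By the ratio of domain width, the LIM-domain genes Lhx2 and Lmo4 differed least between the pools, together with Cux2. This did not hold for the enrichment of Lmo4, or for Lhx2 when touching peaks alone were joined. Lhx2 (chr2:38339281-38369733, plus strand) encodes a LIM-homeodomain factor that specifies cortical identity in the forebrain. Its 5′-most start had a peak of 2503 bases with an enrichment of 18.3, but the widest domain lay at 4 internal starts and ran from 11038 to 18884 bases downstream. That domain had 7847 bases in the replicated list, 7896 in pool I and 7486 in pool J, a mean of 7691 ± 289.9 bases (SD, n = 2 pools). A further marked stretch of 1361 bases, with an enrichment of 12.8, lay between them and held the start of the antisense gene Gm27197. All 7 starts of Lhx2 had a peak in every list.

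Lmo4 (chr3:144188530-144205220, minus strand) encodes a LIM-only protein that binds LDB1 and acts as a cofactor of transcription in cortical neurons. Its domain was a single unbroken peak in every list, 11415 bases in the replicated list, 11497 in pool I and 11355 in pool J, a mean of 11426 ± 100.4 bases (SD, n = 2 pools). The peak ran from 1187 bases upstream of the 5′-most start to 10227 bases downstream, over most of a gene of 16691 bases. Its summit moved between the lists. It lay 538 bases from the nearest annotated start in pool I, at the 5′ end of the gene, and 76 bases from the start 2920 bases downstream in pool J. The highest point thus lay at different places of the same stretch.

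**Figure D2:**
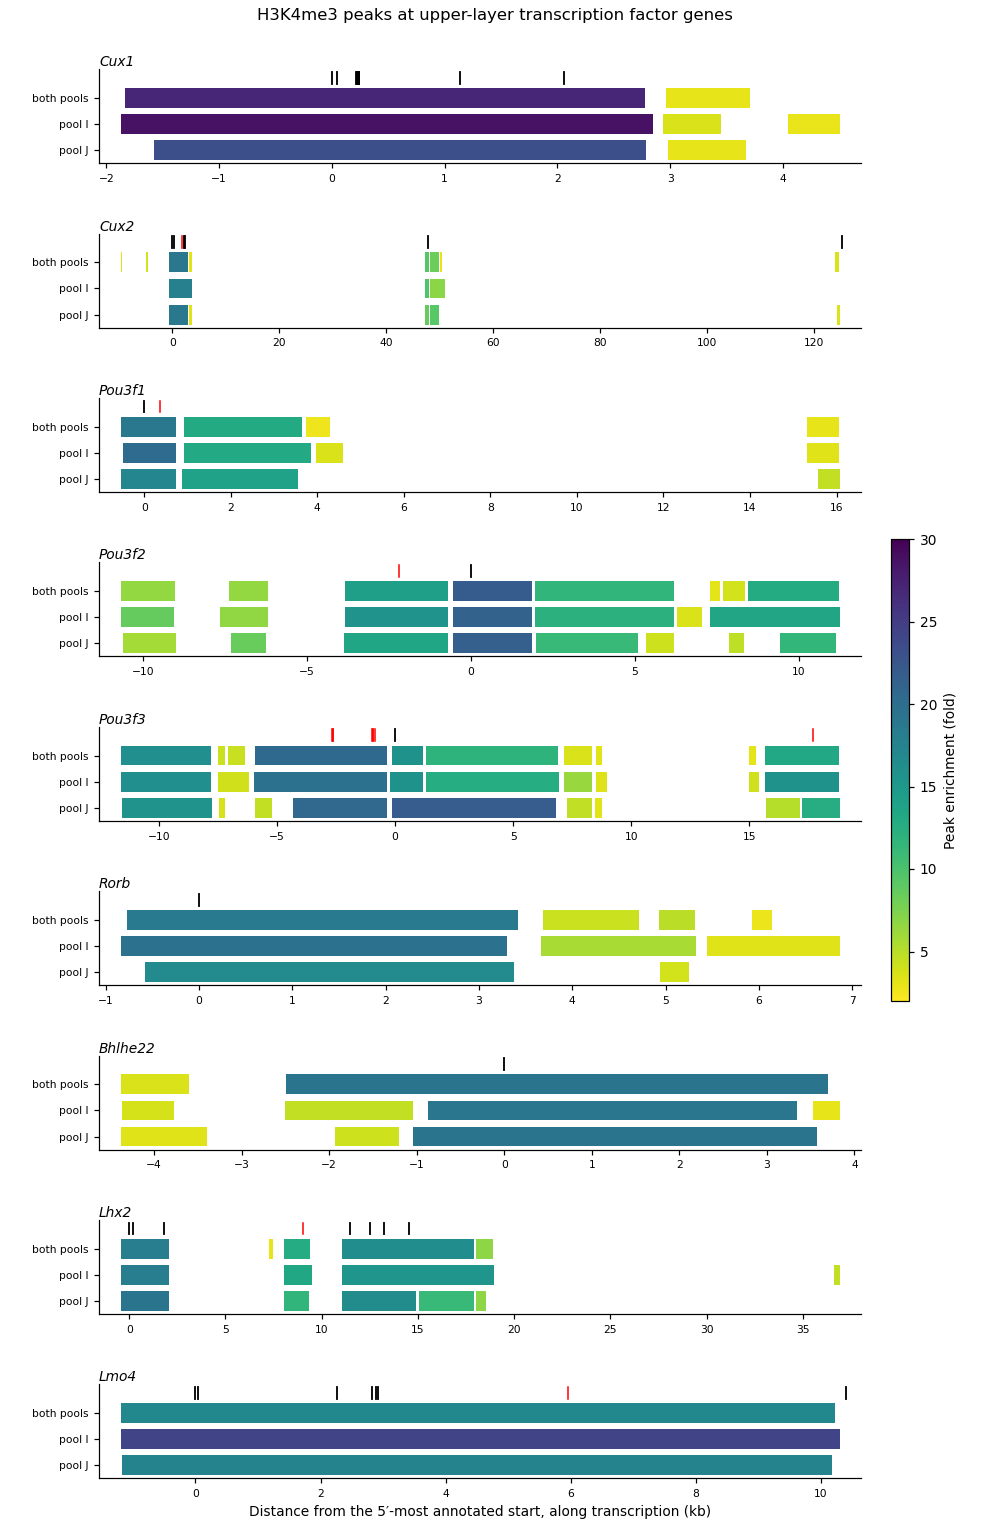
H3K4me3 peaks at the 9 genes in the replicated list (both pools), in pool I and in pool J, against distance from the 5′-most annotated start along the direction of transcription (kb, own scale for each gene), with the peak enrichment (fold) as colour. Black ticks are starts of the gene and red ticks starts of other genes. The main peaks of the pools overlap at every gene, and the pools differ in pale outer peaks such as those 3666 to 6867 bases downstream of the Rorb start in pool I.

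The pools were compared by the width of the domain. All 9 genes were wider in pool I, as were 76.6% of the genes marked in both pools. The median factor (pool I over pool J) was 1.215 over the 9 genes and 1.07 over those genes. The widths were over 1.5-fold apart at 2 of the 9 genes, both wider in pool I, and over 1.5-fold apart in either direction at 4.78% of the 13961 genes marked in both pools, with 4.23% wider in pool I. Rorb had a ratio of 1.949, percentile 98.7 of those genes, and Pou3f2 had 1.5, just past the threshold. Pou3f3 followed at 1.405, Pou3f1 at 1.24, Cux1 at 1.215 and Bhlhe22 at 1.151. Lhx2, Cux2 and Lmo4 were under 10% apart, with 1.055, 1.027 and 1.013.

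**Figure D3:**
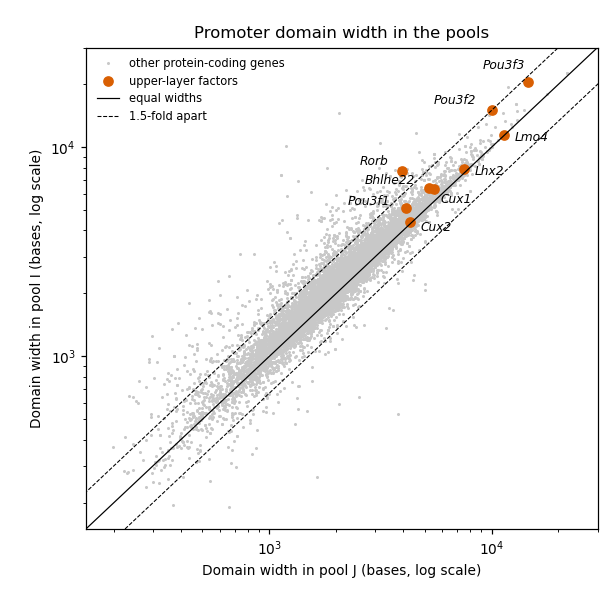
Width of the promoter domain (bases, log scale) in pool I against that in pool J for genes marked in both pools (grey) and for the 9 upper-layer genes (orange), with lines for equal widths (solid) and 1.5-fold difference (dashed). Rorb stands above the upper dashed line with 7708 bases in pool I and 3955 bases in pool J, Pou3f2 lies on it, and Lmo4, Lhx2 and Cux2 lie by the line of equal widths.

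Where the pools differed, the difference lay mainly in outer peaks that were joined to the domain in pool I and were apart or missing in pool J. Not all of these were weak. At Pou3f2 the stretch beyond 6201 bases downstream was bridged in pool I by a peak of 754 bases with an enrichment of 3.61 that led to one of 3964 bases with 13.5, whereas pool J had a gap of 1688 bases there and the replicated list a gap of 1083 bases. At Pou3f3 pool J had a gap of 1274 bases upstream of the domain, and the peaks beyond it, of 3808 bases with an enrichment of 15.7 and of 276 bases, were counted apart. The wider of them had 3830 bases with an enrichment of 16.2 in pool I, where it was joined. With peaks up to 3000 bases apart joined, the ratio was 1.009 at Pou3f2, with 21939 bases in pool I and 21741 in pool J, and 1.015 at Pou3f3, with 20609 and 20306 bases. Rorb retained 7708 bases in pool I and 5837 in pool J, a ratio of 1.321, so none of the 9 genes was then over 1.5-fold apart, against 6.06% of all genes. With touching peaks alone joined, Lhx2 had the highest ratio, 2.054, with 7896 bases in pool I and 3844 in pool J, and at Pou3f2, Pou3f3 and Bhlhe22 the ratio turned below 1, at 0.996, 0.812 and 0.911. Counted as bases under all peaks at the promoter and within 20000 bases of it, which needs no joining, pool I again exceeded pool J at each of the 9 genes and at 81.4% of all genes marked in both pools, by a median of 1.142 over the 9 and 1.085 over all. Rorb, with 7217 bases in pool I and 4272 in pool J, was then the only one of the 9 over 1.5-fold apart, at 1.689, against 3.65% of all genes. Its weak intronic peak in pool I had a −log10 q of 13.2, and with peaks below a −log10 q of 10 left out its ratio was 1.559.

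**Figure D4:**
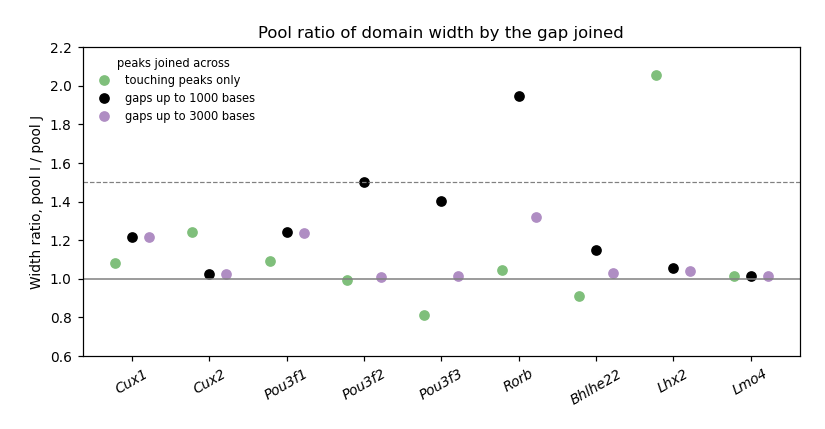
Ratio of domain width in pool I to that in pool J for each upper-layer gene when touching peaks alone (green), peaks up to 1000 bases apart (black) and peaks up to 3000 bases apart (purple) were joined, with lines at 1 (solid) and 1.5 (dashed). Rorb at 1.949 and Pou3f2 at 1.5 reach the dashed line with 1000 bases, no gene does with 3000 bases, and Lhx2 is at 2.054 with touching peaks.

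Short gaps of up to 300 bases broke the domain at 7 of the 9 genes in the replicated list, all but Bhlhe22 and Lmo4, against 15.8% of all marked genes. Among the widest 5% of domains 56.5% had one, as did 5 of the 7 upper-layer genes in that class. There were 15 such gaps inside the domains, and 19 when all peaks within 20000 bases of any promoter peak of the gene were included. This added 2 each at Cux2 and Pou3f2. Those of Cux2 lay outside its domain, by the internal start 47758 bases downstream. A gap counted for a pool when its peaks left at least 50% of the gap uncovered and lay within 1000 bases on both sides. Of the 19, 8 were gaps in both pools, 2 in pool I only, 4 in pool J only and 5 in neither. The 5 in neither were covered by peaks in pool I. Pool J had no peak over them and none within 1000 bases on 1 side. Over the whole list 37.8% of such gaps were gaps in both pools. Of the gaps outside exons, 1 from each of 5 genes is printed as an example of a long repeat run. They were picked for these runs after the sequences were seen and do not stand for the 19. Each is from the mm10 build and read 5′ to 3′ along the gene's strand, with its longest run of a repeated unit of 1 to 3 bases in capitals.
Pou3f2 gap, chr4:22488900-22489061, minus strand: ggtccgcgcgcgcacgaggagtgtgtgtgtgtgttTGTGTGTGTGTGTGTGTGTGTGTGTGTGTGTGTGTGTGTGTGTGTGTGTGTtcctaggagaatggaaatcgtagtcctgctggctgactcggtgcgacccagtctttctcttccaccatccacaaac
Pou3f3 gap, chr1:42704121-42704265, plus strand: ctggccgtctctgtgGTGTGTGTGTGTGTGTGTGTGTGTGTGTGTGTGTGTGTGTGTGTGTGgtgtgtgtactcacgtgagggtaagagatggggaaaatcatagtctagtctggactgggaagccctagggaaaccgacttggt
Cux2 gap, chr5:122001940-122002065, minus strand: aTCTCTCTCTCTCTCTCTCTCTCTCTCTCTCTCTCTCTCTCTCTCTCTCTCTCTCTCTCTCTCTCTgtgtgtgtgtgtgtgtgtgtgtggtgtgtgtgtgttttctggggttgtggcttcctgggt
Rorb gap, chr19:19107512-19107777, minus strand: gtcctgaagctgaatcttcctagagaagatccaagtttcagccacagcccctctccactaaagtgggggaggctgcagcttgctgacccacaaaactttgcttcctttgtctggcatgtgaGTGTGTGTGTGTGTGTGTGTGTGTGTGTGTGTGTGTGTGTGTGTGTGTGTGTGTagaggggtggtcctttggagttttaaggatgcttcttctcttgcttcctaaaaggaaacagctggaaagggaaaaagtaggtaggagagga
Lhx2 gap, chr2:38357208-38357292, plus strand: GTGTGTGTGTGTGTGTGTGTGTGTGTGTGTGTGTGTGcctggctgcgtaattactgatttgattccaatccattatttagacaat
The Cux2 gap was in all lists and held a run of 65 bases of alternating T and C. The runs were of 51 bases at Pou3f2, 47 at Pou3f3, 54 at Rorb and 37 at Lhx2, all of alternating G and T. The Pou3f2 gap, upstream of the start, had 162 bases in the replicated list, 161 in pool I and 169 in pool J. The Rorb gap lay between the main peak and the intronic peaks described above.

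Counted over all 19 gaps, 14 held a repeat run of at least 12 bases, a criterion chosen after the sequences were seen. In the peak sequence of equal length on either side of the same gaps, 7 of 38 intervals did. Over the whole replicated list such a run was in 34.3% of 3054 gaps of up to 300 bases and in 8.54% of 6016 intervals beside them. The longest run had a median of 18 bases in the gaps of the 9 genes and 7.5 bases in the intervals beside them. The 5 gaps without a run of 12 bases were at Cux1, Pou3f1, Pou3f2 and Rorb. The share at the 9 genes, 73.7%, is a description of 19 gaps at 7 genes that are not independent of each other. The part of the repeats in the gaps was not tested.

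**Figure D5:**
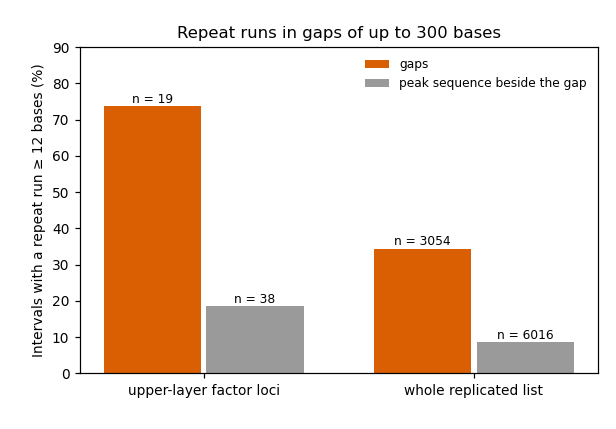
Share (%) of gaps of up to 300 bases between replicated peaks (orange) and of equally long peak sequence beside them (grey) that held a repeat run of at least 12 bases, at the upper-layer genes and over the whole list, with the number of intervals above each bar. The gaps stand at 73.7% and 34.3%, and the peak sequence beside them at 18.4% and 8.54%.

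In base composition the domains were unlike each other. The ratio of observed to expected CpG dinucleotides was 0.827 at Pou3f1 and 0.777 at Cux1, percentiles 92.8 and 86.4 of the domains of marked genes. It was 0.687 at Bhlhe22, 0.625 at Cux2, 0.582 at Pou3f3, 0.574 at Lmo4, 0.572 at Pou3f2 and 0.541 at Lhx2, on either side of the median of 0.615 over all marked genes. The median over the widest 5% of domains was lower, at 0.502, and of the 9 genes Rorb alone lay below it. Rorb was the lowest at 0.38, percentile 8.7, with a GC content of 44.7%, although the window before its 5′-most start held 18 CpGs. In the 5000 bases on either side of the domains the ratio was lower at each of the 9 genes, between 0.192 at Rorb and 0.395 at Pou3f2, as it was at 98.9% of all marked genes. Of the 9 domains, 8 extended further downstream than upstream of the 5′-most start in the replicated list, against 86.1% of all marked genes. Lhx2 is among the 8 by position alone, since its widest domain began 11038 bases downstream of that start. The exception was Pou3f3, which in pool J reached 5927 bases upstream and 8742 downstream.

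Other genes known as markers of layers II to IV were mostly marked, with a narrower median domain. Of 16 such genes, 15 had a promoter peak in the replicated list, 15 in pool I and 14 in pool J. Scnn1a, an epithelial sodium channel subunit used as a layer IV driver line, had none in any list, and Otof had a peak of 500 bases in the replicated list and 477 in pool I with none in pool J. Against the median of 6904 bases for the 9 factors, these genes had 3558 bases. Not all were narrow, and 1 of them was among the widest 5%, against 7 of the 9. Most of the list are receptors, channels, secreted proteins and other proteins that are not transcription factors. Plxnd1, a semaphorin receptor, had 4934 bases, Nectin3, an adhesion protein, 4790, and Cartpt, a neuropeptide precursor, 765.

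Transcription factors of the deep layers were the nearest in kind. The median width was 6904 bases for the 9 upper-layer genes, against 6408.5 bases for the 10 deep-layer genes, all marked in every list and 6 of them among the widest 5%. Tbr1, which specifies corticothalamic neurons, had 13246 bases, Foxp1 8565, Sox5 8266, Fezf2, which directs subcerebral neurons, 6880, Bcl11b (CTIP2) 6797 and Etv1 6020. Nr4a2, Zfpm2, Tle4 and Foxp2 had 3916, 4584, 4782 and 2825 bases. The width ratio between the pools, pool I over pool J, had a median of 1.142, and only Etv1 was over 1.5-fold apart, with 6647 bases in pool I and 3821 in pool J. The ranges of width, 4298 to 20385 bases for the upper-layer and 2825 to 13246 bases for the deep-layer factors, overlapped over most of their length.

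The paralogues listed for 7 of the 9 genes, all but Cux1 and Cux2, were narrower than the gene they belong to or had no promoter peak in the replicated list. Of 8 paralogues, 6 had a promoter peak in the replicated list, not far from the 65.2% of all protein-coding genes. None of these 6 was among the widest 5%, a class that by definition holds 5% of marked genes. So few genes cannot show a lack of wide domains. Their median was 2979.5 bases, and Lmo3 at percentile 94.9 lay just under the class. Pou3f3, Pou3f2 and Pou3f1 had 20385, 10059 and 4840 bases, against 3992 for Pou3f4, the remaining gene of their class. Rorb had 6904 bases, against 3350 for Rora. Lmo4 had 11415 bases, against 5145 for Lmo3, 2609 for Lmo2 and 1423 for Lmo1. Lhx9 and Bhlhe23, the relatives of Lhx2 and Bhlhe22, had no promoter peak in any list.

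The partner genes compared belong to LHX2, LMO4, BHLHE22 and the POU factors, and none was listed for CUX1, CUX2 or RORB. All 5 had a promoter peak in every list, against 65.2% of all protein-coding genes in the replicated list. Of them, 3 were among the widest 5%, a class that by definition holds 5% of marked genes. Ldb1, the scaffold that joins LIM-domain proteins such as LHX2 and LMO4, had 8664 bases in the replicated list, 8611 in pool I and 8654 in pool J. Prdm8, which forms a repressor complex with BHLHE22, had 7028 bases, and Sox11, a partner of POU factors, 6490. Ssbp3, which binds LDB1, had 4858 bases. Ldb2 had 2988 bases in the replicated list and, with 5235 in pool I and 2688 in pool J, a ratio of 1.948, near that of Rorb.

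For each of the 9 genes the protein-coding gene with the most similar pair of widths in pool I and pool J was looked up, by distance on the log2 scale over the 2 lists. Nr2f1, a nuclear receptor that patterns cortical areas, was nearest to Pou3f3, with 19364 bases in pool I and 11847 in pool J at a distance of 0.32, the largest of the 9. Mef2c, a factor of excitatory neurons, was nearest to Pou3f2, with 14196 and 9743 bases at 0.10. Egfl7 was nearest to Rorb, with 7618 bases in pool I and 3832 in pool J at 0.05. For the other 6 the nearest gene lay within 0.05, namely Gpr158 for Cux1, Unc13a for Cux2, Ppp1r12a for Pou3f1, Lpgat1 for Bhlhe22, Sox8 for Lhx2 and Pcdh7 for Lmo4.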

How the data were processed

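H3K4me3 ChIP-seq peaks of mouse left cerebral cortex were used as deposited, on the mm10 build per the labels. The authors deposited a peak list for pool I, for pool J, for the pooled reads of both and a replicated list called on both pools, per the accompanying text files. Each pool has 1 alignment, shared by its libraries. Read numbers, aligner and peak caller are not given in the sources used, so depth is unknown and no interval for counting error could be given. The enrichment of each peak is a ratio given by the authors, taken as fold over control from the deposited text files, and was used within a list only. The −log10 q values deposited by the authors served as a filter in alternatives. Summit offsets are those in the deposited lists.

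Gene models were GENCODE M21, mitochondrial genes left out. Peaks up to 1000 bases apart were joined into domains, each gene was given the widest that touched a promoter window, and positions are counted from 1. Gaps, coverage, composition and repeat runs were computed with Python 3.11.15, pandas 2.3.3, numpy 2.4.6 and pysam 0.24.0, plots with matplotlib 3.10.9. The joining of peaks, the edge of the promoter window and the search for repeat runs were tested on simulated data, and the other steps were not. No test was run, since there is 1 list per pool and no condition. Percentiles or shares over all genes stand beside the main values. The genes named were the 9 genes, those of the 4 lists compared, the nearest gene by width, the marker genes and genes starting within the marked stretches. Some genes of these lists enter the counts and are not reported here by name. Members and lists were chosen with earlier results of these data known. Alternatives changed the window, the starts, the joining distance, the −log10 q threshold, the overlap and the list.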

Additional observations from a re-analysis of the deposited data

How the results depend on the processing

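All 9 genes kept a promoter peak under every alternative of window, starts, joining, −log10 q threshold and list. Over all protein-coding genes the share ranged from 61.6% to 66.2%. The joining distance cannot change the count of genes with a promoter peak, and a wider window can only add to it. Only when at least 50% of a peak had to lie in the window did the count drop to 5, since peaks far wider than the window cannot meet this, and 60.1% of all genes then met it. Of 64 values under alternatives, 43 stayed close to those reported and 21 moved. Close meant a count within 1.5-fold, an equal median ratio, or the width of a gene within its SD over the pools. For the median width it meant within 1559.2 bases, the SD over the medians of pool I and pool J. Those medians were themselves judged by this SD, and a count of 5 against 7 passed. The tally is thus no measure of stability. The count among the widest 5%, 7 as reported, was 6 with the 5′-most start alone, with joining up to 3000 bases, with a −log10 q of at least 5 and in pool J, and 5 with touching peaks alone or a −log10 q of at least 10. Joining touching peaks alone gave a median width of 4614 bases, 1 gene over 1.5-fold apart and a median ratio of pool I to pool J of 1.046, against 6.24% and 1.064 over all genes marked in both pools. Joining up to 3000 bases gave 0 genes and a ratio of 1.031, against 6.06% and 1.068. A −log10 q of at least 5 gave 1 gene and 1.061, against 4.06% and 1.068, and of at least 10 gave 1 gene and 1.084, against 3.54% and 1.067. Under these alternatives the median ratio of the 9 genes was thus close to that of all genes. By bases under peaks the median ratio was 1.142. The pool differences thus depend on how outer peaks are treated. The width of the 9 genes relative to all marked genes does not rest on either pool list, with medians of 7708 bases in pool I alone and 5503 in pool J alone. No paired analysis was possible because both libraries of a pool share 1 list and no result came from a test, and for the same reason no library could be left out. Without read numbers, a weak peak absent from a list was not detectable at an unknown depth, which does not show that the mark is absent.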
